A study of Mus musculus with 12 samples.

Results

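Dermal adipocyte genes were followed through bleomycin injury of the skin in WT and Thy-1 KO mice: all 10 of a list of 10 were found among the 55453 genes of the count table, and all 10 were among the 18311 genes with enough counts to be tested. They were chosen by symbol, with earlier results of these data known, as adipocyte hormones and secreted factors (Adipoq, Lep, Retn, Cfd), lipid droplet proteins (Plin1, Plin4, Cidec), genes of fatty acid release and carriage (Lpl, Fabp4) and the regulator Pparg. RNA was taken from whole skin of 12 mice, 3 in each of 4 groups, on the C57/BL6 background. WT PBS and WT BLM mice carried Thy1 and received PBS or bleomycin (BLM), a DNA-damaging drug that produces skin fibrosis; KO PBS and KO BLM mice were Thy1-knockout and received the same 2 agents. Injections were given under the skin of the back and skin was collected at day 21; the study's methods describe the KO mice as females of 8 to 12 weeks and give no age for the WT mice.

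White adipocytes fill the deepest layer of mouse dermis below the hair follicles, where they store triglyceride in a single large droplet. The nuclear receptor PPARγ drives their differentiation and switches on most of the genes followed here, and mature cells release adiponectin, leptin, resistin and adipsin. Perilipins and CIDEC coat and enlarge the droplet, lipoprotein lipase frees fatty acids from circulating lipoproteins, and FABP4 carries them inside the cell. This layer thickens and thins with the hair cycle and is known to shrink in fibrotic skin. Some of the genes are also used by other skin cells, FABP4 by endothelium and macrophages, PPARγ by sebaceous glands and lipoprotein lipase by muscle.

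The 12 libraries held between 26473700 and 38890450 counted reads, and values are given as CPM, a gene's reads per megaread of its library after scaling for library composition (TMM). Thy1 itself was at 45.6 to 96.9 CPM in KO PBS and 104 to 150 CPM in WT PBS mice, and at 84.7 to 128 CPM in KO BLM and 231 to 416 CPM in WT BLM mice, so that the genotypes did not overlap within either treatment but Thy1 reads were still counted in the KO mice. Libraries stood apart by hair growth: the mean log2 CPM of 20 growing hair shaft and inner root sheath genes was 9.83 to 10.46 in WT PBS mice and -0.01 to 3.87 in WT BLM mice, while KO PBS mouse 136 (10.41) and KO BLM mouse 141 (9.38) lay with the WT PBS mice and KO PBS mice 137 and 139 (-0.41 and 2.36) with the WT BLM mice. In WT mice, treatment and hair growth therefore cannot be told apart. KO BLM mice 143 and 144 (5.47 and 6.51) lay between these high and low libraries.

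All 10 genes were counted in every library. Adipoq, which encodes adiponectin, lies at chr16:23146536-23158028 (plus strand, GRCm38) and was counted between 665 and 9390 times per mouse. The least counted of the hormone genes was Lep, with 64 to 1784 reads per mouse. Ucp1, the defining gene of brown fat, had at most 3 reads in any mouse, although the other 5 genes of the brown fat list (Dio2, Prdm16, Cox7a1, Cox8b, Otop1) were all detected.

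Per kilobase of the principal transcript, the 10 genes spanned a wide range in WT PBS skin. Fabp4 (558 ± 87.7 CPM per kb, SD, n = 3) and Cfd (405 ± 84.2) were the most abundant, and their SDs overlapped. Lpl (74.4 ± 24.9), Adipoq (50.9 ± 9.86) and Cidec (40.5 ± 8.10) followed, and the SDs of neighbours in this order overlapped. Retn (20.5 ± 3.70), Plin4 (20.4 ± 5.55) and Plin1 (19.3 ± 3.84) did not differ beyond their spread. Pparg (8.52 ± 0.808) and Lep (5.68 ± 1.55 CPM per kb) were lowest, with SDs that did not overlap.

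The genes varied together from mouse to mouse within the groups. KO PBS mouse 139 was among the 3 highest mice for 10 of the 10 genes, KO PBS mouse 137 for 9 and WT BLM mouse 146 for 8. KO BLM mouse 144 was among the 3 lowest for all 10 and WT BLM mouse 145 for 9. The 3 WT PBS mice stayed close together, with a highest-to-lowest ratio of CPM between 1.21 (Pparg) and 2.03 (Lpl), whereas within WT BLM mice this ratio ran from 2.92 (Lpl) to 6.96 (Cfd). Over all 12 mice the ratio was smallest for Lpl (3.37) and largest for Lep (23.5).

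**Figure D1:**
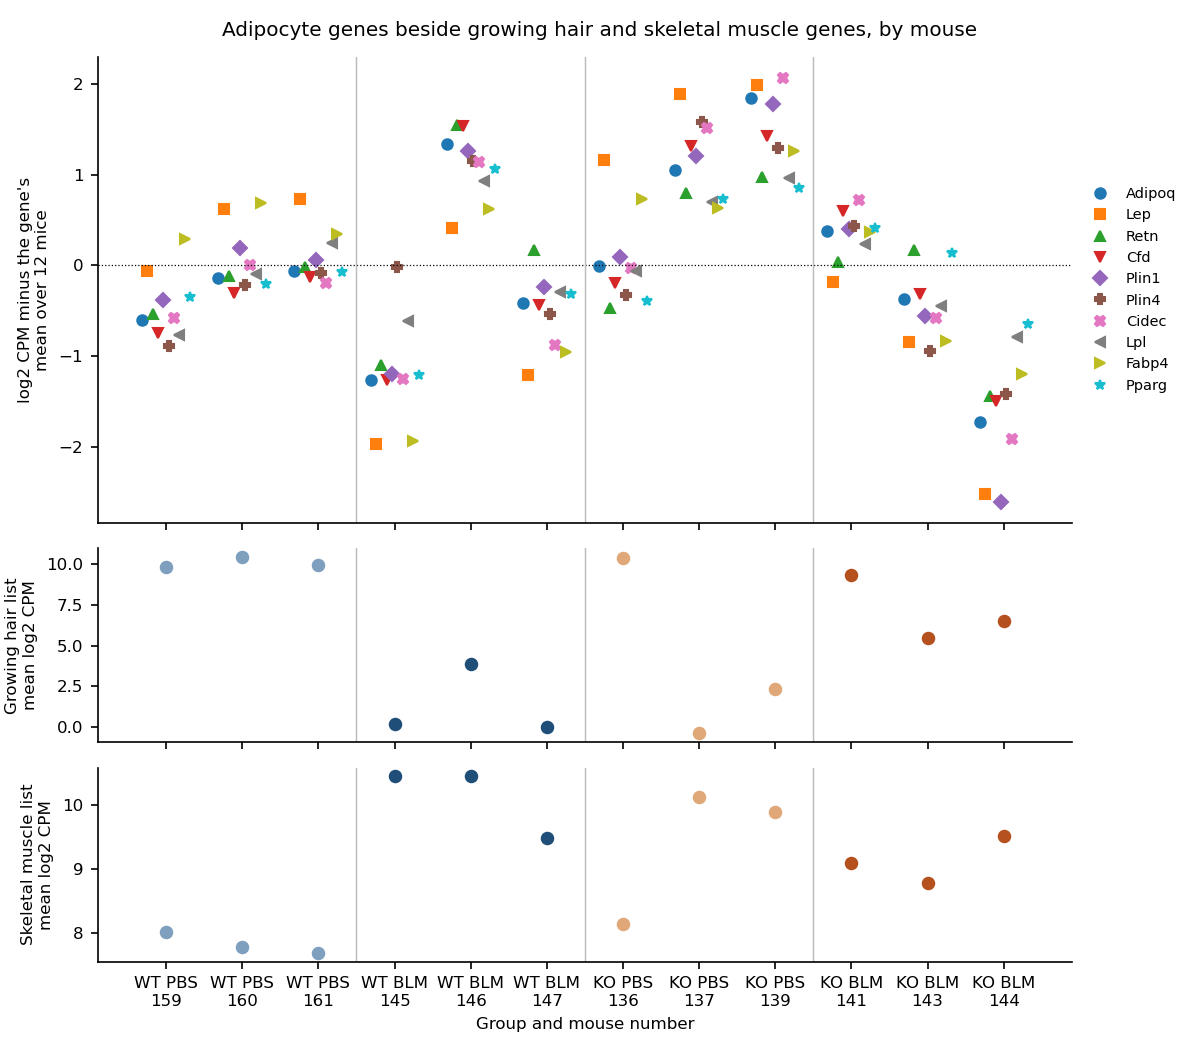
Top: log2 CPM of each of the 10 adipocyte genes in each mouse (x axis, group and mouse number), as the difference from that gene's mean over the 12 mice; symbols are genes. Middle and bottom: mean log2 CPM of the growing hair and skeletal muscle gene lists in the same mice. Most symbols move together from mouse to mouse, high in mice 137, 139 and 146 and low in 144 and 145, except for Plin4, which lies near its own mean in mouse 145; Lep stands away from Adipoq in several mice.

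Skeletal muscle genes moved with the mice as well. The mean log2 CPM of 19 muscle genes was 7.69 to 8.01 in WT PBS mice, 9.48 to 10.45 in WT BLM mice, 8.14 to 10.14 in KO PBS mice and 8.77 to 9.51 in KO BLM mice, and KO PBS mice 137 and 139, high in the adipocyte genes, held 10.14 and 9.89. WT BLM mouse 145, low in the adipocyte genes, was at 10.45 like mouse 146, and KO BLM mouse 144, also low in them, had the highest muscle value of its group (9.51). All 19 muscle genes were detected. Sebaceous gland genes (11 of 11 detected) summed to 1694 to 2022 CPM with PBS and 1285 to 1934 CPM with bleomycin in WT mice, and to 1534 to 3338 and 2111 to 3695 CPM in KO mice. Endothelial genes (10 of 10 detected) summed to 210 to 234 and 244 to 642 CPM in WT and to 198 to 395 and 322 to 352 CPM in KO mice. Macrophage genes (14 of 14 detected) summed to 1197 to 1827 and 2899 to 4260 CPM in WT and to 1355 to 2584 and 2322 to 3148 CPM in KO mice. Fibroblast genes (10 of 10 detected) summed to 6264 to 8433 and 11149 to 35646 CPM in WT and to 5794 to 18882 and 9108 to 23901 CPM in KO mice. In KO PBS mice 137 and 139 the fibroblast sums (18882 and 15247 CPM) stood above that of mouse 136 (5794 CPM), as the adipocyte genes other than Fabp4 did. Apart from the fits with the hair or muscle list as a covariate given beside the results, the part of these cells in the adipocyte values was not tested. In bulk skin, fewer adipocytes and less RNA per adipocyte cannot be told apart.

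Among the hormones, Adipoq stood at 51.3, 71.1 and 75.0 CPM in WT PBS mice 159, 160 and 161 and at 32.4, 197 and 58.3 CPM in WT BLM mice 145, 146 and 147. In KO PBS mice 136, 137 and 139 it was 77.5, 162 and 280 CPM, and in KO BLM mice 141, 143 and 144 it was 101, 60.2 and 23.5 CPM, and the other genes are given in the same order of mice. All KO PBS mice lay above all WT PBS mice, and the bleomycin mice overlapped with the PBS mice in both genotypes.

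Lep, at chr6:29060220-29073877 (plus strand, GRCm38), encodes leptin, the hormone that reports fat stores to the hypothalamus. It was 12.7, 20.6 and 22.2 CPM in WT PBS mice and 3.37, 17.8 and 5.71 CPM in WT BLM mice, and 29.8, 49.6 and 53.2 CPM in KO PBS mice against 11.8, 7.38 and 2.26 CPM in KO BLM mice. All KO BLM mice lay below all KO PBS mice, and 2 of the 3 WT BLM mice below all WT PBS mice. Retn, the resistin gene, was 23.4 ± 4.22 CPM (SD, n = 3) with PBS and 40.6 ± 34.3 CPM with bleomycin in WT mice, and 39.8 ± 17.8 and 22.7 ± 11.1 CPM in KO mice. Cfd, which encodes the complement protease adipsin, was 373 ± 77.6, 650 ± 648, 974 ± 479 and 430 ± 283 CPM in the same order. Mouse 146 was the highest of the 12 for both, at 78.8 CPM of Retn and 1393 CPM of Cfd, and the groups of each gene overlapped within each genotype.

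The RefSeq sequences before the starts of Lep and Adipoq are printed because these 2 hormone genes parted under bleomycin, as shown further on. Each is 120 bases of GRCm38.p6 ending just before the RefSeq start, 5′ to 3′ on the gene's strand. Capitals mark matches to the motifs searched.
Lep, chr6:29060101-29060220: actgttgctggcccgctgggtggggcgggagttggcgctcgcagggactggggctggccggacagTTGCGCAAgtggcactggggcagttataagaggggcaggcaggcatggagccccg
Adipoq, chr16:23146416-23146535: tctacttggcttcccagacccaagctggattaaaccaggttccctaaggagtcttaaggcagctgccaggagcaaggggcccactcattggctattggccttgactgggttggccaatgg
The capitals in Lep are the C/EBP palindrome TTGCGCAA, which begins at position -55 from the start. Of 11 promoter windows (250 bases before to 50 after a start) that RefSeq gave for 8 of the 10 genes, 1, that of Lep, held it, as did 0.183% of 32841 promoters in the table. The looser form TTGCNNAA, which includes the palindrome, was in 4 of 11 windows (Lep, Cidec, Plin1 and Pparg) against 10.8% of all promoters. The direct repeat AGGTCANAGGTCA, the consensus of PPARγ with its partner RXR, was in 0 of 11 and in 0.0396% of all promoters, and its single repeat AGGTCA was in 2, both of Pparg, against 16.3%. TATAAA was in 1, also of Pparg, against 13.6%. Both strands were searched, and windows without a match say only that these letters are not there. Fabp4 and Lpl had no entry.

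Among the droplet genes, Plin4 was 81.3, 130 and 142 CPM in WT PBS mice and 148, 333 and 103 CPM in WT BLM mice. It was 120, 450 and 368 CPM in KO PBS mice and 204, 78.0 and 56.4 CPM in KO BLM mice. The groups overlapped within both genotypes. Plin4 (chr17:56100591-56109803, minus strand) overlaps Hdgfl2 on the other strand, and whether counting used strand is not given in the sources used here. Plin1, the perilipin that gates lipolysis at the droplet surface, was 54.4 ± 10.8 CPM (SD, n = 3) with PBS and 67.6 ± 57.0 CPM with bleomycin in WT mice, and 126 ± 65.6 and 39.8 ± 31.9 CPM in KO mice, from 9.01 CPM in KO BLM mouse 144 to 190 CPM in KO PBS mouse 139. Cidec, whose product fuses small droplets into large ones, was 69.7 ± 13.9, 86.7 ± 81.9, 220 ± 132 and 70.7 ± 58.5 CPM in that order, from 21.7 to 344 CPM in the same 2 mice. Among WT BLM mice both were highest in mouse 146 and lowest in mouse 145, and no group of either gene stood clear of its controls.

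Fabp4 (chr3:10204088-10208576, minus strand) was 446, 590 and 463 CPM in WT PBS mice and 95.4, 563 and 189 CPM in WT BLM mice. It was 608, 565 and 876 CPM in KO PBS mice and 472, 205 and 159 CPM in KO BLM mice. As for Lep, the KO BLM mice all lay below the KO PBS mice. Lpl was 306 ± 102 CPM (SD, n = 3) with PBS and 382 ± 232 CPM with bleomycin in WT mice, and 512 ± 171 and 281 ± 105 CPM in KO mice, with overlap between all groups. Pparg (chr6:115360951-115490399, plus strand), which overlaps the antisense gene model Gm44079, was 13.6, 15.1 and 16.5 CPM in WT PBS mice, 7.44, 36.4 and 13.9 CPM in WT BLM mice, 13.2, 28.8 and 31.4 CPM in KO PBS mice and 23.1, 19.0 and 11.1 CPM in KO BLM mice. For Pparg every group overlapped every other.

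**Figure D2:**
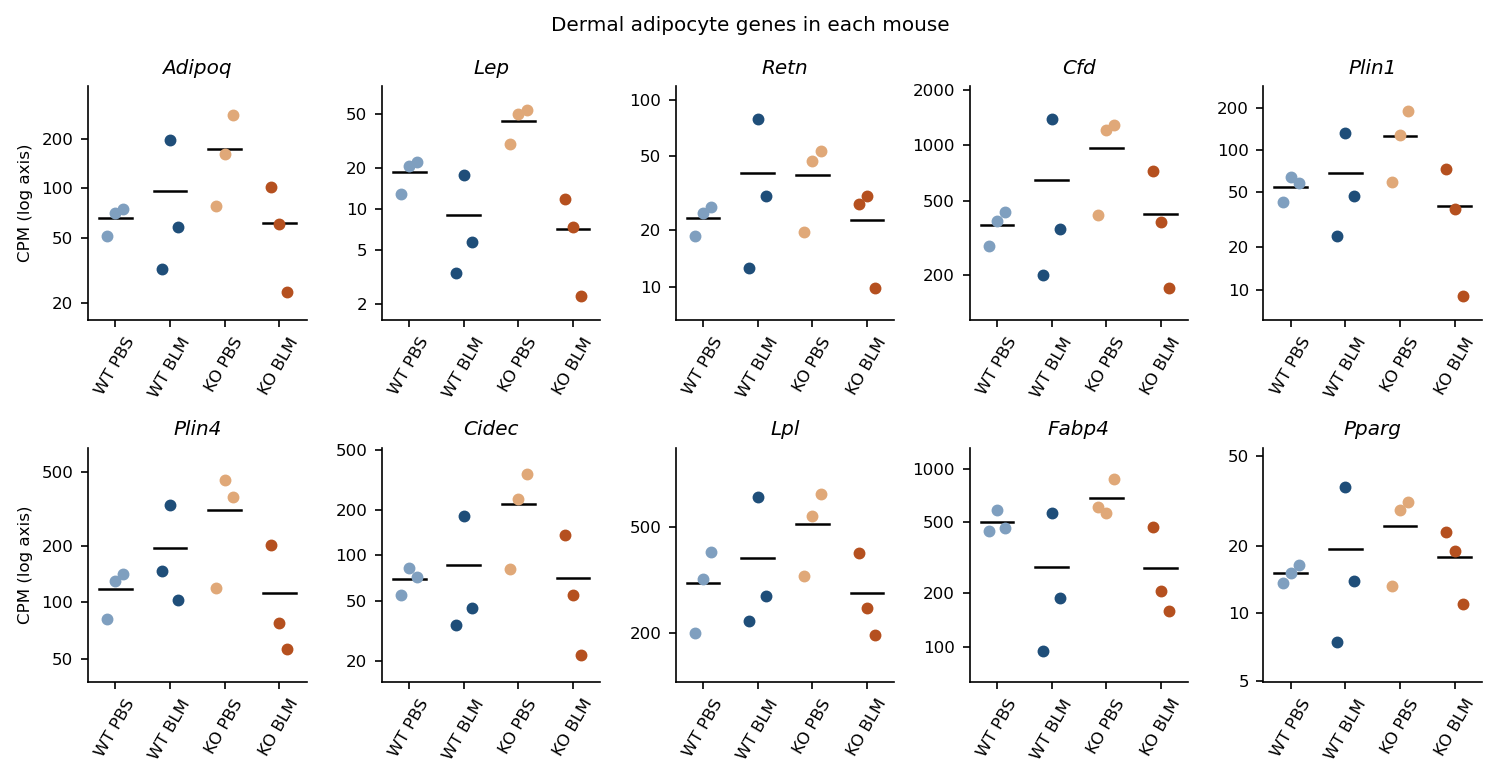
CPM of each adipocyte gene (log axis) in each mouse by group; points are mice and bars are arithmetic means of 3 mice. In most panels WT BLM spreads widely, from mouse 145 to mouse 146, and KO BLM lies below KO PBS with overlap except for Lep and Fabp4.

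The first comparison asked what bleomycin did in WT skin. None of the 10 genes passed the test (edgeR quasi-likelihood, Benjamini-Hochberg adjusted p between 0.221 and 0.765), in a comparison where 34% of all genes tested did. None had an unadjusted p under 0.05 (47.4% of all genes did). DESeq2 also called 0, with 34.7% of all genes called, and 0 of the 10 had groups without overlap, against 57% of all genes. Log2 fold changes were above 0 for 8 genes and below 0 for Lep (-1.04, SE 0.64) and Fabp4 (-0.82, SE 0.58), with a median of 0.34 beside 0.02 over all genes. The intervals were wide: for Adipoq, the fold change of 1.46 had a 95% interval of 0.503 to 4.22.

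The direction of the WT comparison rested on mouse 146. Without it, 9 of the 10 genes were below 0 with a median of -0.52, and Lep (-2.02, SE 0.61, adjusted p = 0.0467) and Fabp4 (-1.81, SE 0.49, adjusted p = 0.0350) passed edgeR's test, when 19.8% of all genes did. Plin4 alone was above 0, at 0.098. With the muscle list as a covariate all 10 were below 0, with a median of -0.93 and 0 called, in a fit that called 0% of all genes. With the hair list as a covariate 9 were above 0, with a median of 0.62 and 0 called, in a fit that called 0.0874% of all genes. Each list parts WT PBS from WT BLM mice without overlap, so neither fit can separate its list from treatment.

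In KO skin bleomycin-treated mice had lower values of all 10 genes. No gene passed edgeR's test after adjustment (adjusted p between 0.116 and 0.630), and 0.306% of all genes tested did. The median log2 fold change was -1.38, beside -0.01 over all genes. Lep was lowest, at -2.63 (SE 0.67), a fold change of 0.162 with a 95% interval of 0.0575 to 0.454, an unadjusted p of 0.00269 and an edgeR adjusted p of 0.116. Plin1 (-1.66, SE 0.76), Cidec (-1.64, SE 0.78), Adipoq (-1.49, SE 0.71), Plin4 (-1.47, SE 0.62) and Fabp4 (-1.29, SE 0.59) came next. Pparg had the smallest value, -0.46 (SE 0.52).

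Lep and Plin4 had an unadjusted p under 0.05 (2 of 10, against 20% of all genes), and 2 of 10, Lep and Fabp4, had KO BLM mice all below KO PBS mice, against 8.44% of all genes. DESeq2 called 1, Lep (adjusted p = 0.00168), when it called 5.95% of all genes with an adjusted p. Without KO PBS mouse 136 or without KO BLM mouse 141, the KO mice whose hair genes were highest, edgeR called Lep too (adjusted p = 0.0310 and 0.0462), with 14% and 6.19% of all genes called. Without both mice, 4 genes were called lower, Lep, Plin4, Cidec and Plin1, with 22.3% of all genes called and a median over the 10 genes of -2.28. Without mouse 136 the KO PBS mice left (hair list -0.41 and 2.36) all lay below the KO BLM mice (5.47 to 9.38). In those fits treatment and hair growth cannot be told apart in KO mice. The median stayed below 0 with the hair list (-1.54, 1 called, Lep at -2.87, adjusted p = 0.0437, with 9.14% of all genes called) and with the muscle list (-1.07, 0 called, with 0.939% of all genes called) as a covariate.

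Among mice that received PBS, KO were compared with WT. All 10 log2 fold changes were above 0, with a median of 1.23 beside 0.02 over all genes, and 0 passed edgeR's test (adjusted p between 0.241 and 0.640) as did 0.0655% of all genes. Cidec was highest at 1.66 (SE 0.78), followed by Plin4 (1.41, SE 0.62), Adipoq (1.40, SE 0.70), Cfd (1.38, SE 0.73) and Lep (1.26, SE 0.64), while Fabp4 (0.45, SE 0.58) was lowest. Plin4 alone had an unadjusted p under 0.05 (0.0442, against 20.4% of all genes), and DESeq2 called 0, with 3.69% of all genes called. Adipoq and Lep were the 2 of 10 genes whose KO PBS mice all lay above the WT PBS mice, against 8.62% of all genes.

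Mouse 136 was the lowest KO PBS mouse for every gene except Fabp4. Without it edgeR called 1, Plin4 (1.80, SE 0.57, adjusted p = 0.0345), with 36.7% of all genes called, and without both mouse 136 and mouse 141 it called 2, Plin4 and Cidec, with 40.9%. The KO PBS mice left in these fits lay below all WT PBS mice in the hair list (-0.41 and 2.36 against 9.83 to 10.46). Genotype and hair growth cannot be told apart there. With the muscle list as a covariate the median was 0.12 and Retn, Plin4 and Pparg were below 0. The mean log2 CPM of that list was 8.14 to 10.14 in KO PBS and 7.69 to 8.01 in WT PBS mice, without overlap. Genotype and muscle gene levels cannot be told apart in that fit.

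KO BLM mice, compared with WT BLM mice, were below them for all 10 genes with a median of -0.52. None of the 10 was called by edgeR (adjusted p between 0.485 and 0.989) or DESeq2, and none had an unadjusted p under 0.05 (16.6% of all genes did). Of all genes 0.0928% were called by edgeR and 2.99% by DESeq2. Every one of the 10 had overlapping groups, while 27.5% of all genes had not. Retn (-0.84, SE 0.62) and Plin4 (-0.79, SE 0.61) were lowest and Fabp4 (-0.02, SE 0.58) nearest to 0. Without mouse 146 the median was 0.53 and 9 genes were above 0, with the muscle list as a covariate it was 0.13 and 7 were above 0, and without mouse 144 it was -0.22 and 4 were above 0.

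The last contrast took the bleomycin response of KO mice minus that of WT mice. All 10 values were below 0, with a median of -1.78 on the log2 scale beside -0.05 over all genes. Plin4 was lowest at -2.20 (SE 0.87, unadjusted p = 0.0284, edgeR adjusted p = 0.125), Adipoq was -2.03 (SE 0.99) and Fabp4 was nearest to 0 at -0.47 (SE 0.82). In edgeR 0 of 10 genes and 0% of all genes passed, with 1 of 10 and 31.1% of all genes at an unadjusted p under 0.05. DESeq2 called 1 of 10, Plin4 (adjusted p = 0.0495), and 17.8% of all genes. Without mouse 136 edgeR called Plin4 (-2.58, SE 0.78, adjusted p = 0.0251) and 39.9% of all genes, and without both mouse 136 and mouse 141 it called 5 of the 10 (Adipoq, Cfd, Plin1, Plin4 and Cidec, between -3.33 and -2.94) and 38.6% of all genes. In both fits treatment and hair growth cannot be told apart in either genotype. Without mouse 146 the median was -0.73, and with the muscle list as a covariate it was -0.06. The muscle list parts the WT groups without overlap, so that fit cannot separate it from treatment in WT mice. Each group enters more than 1 of these comparisons, so their values for a gene are not independent.

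**Figure D3:**
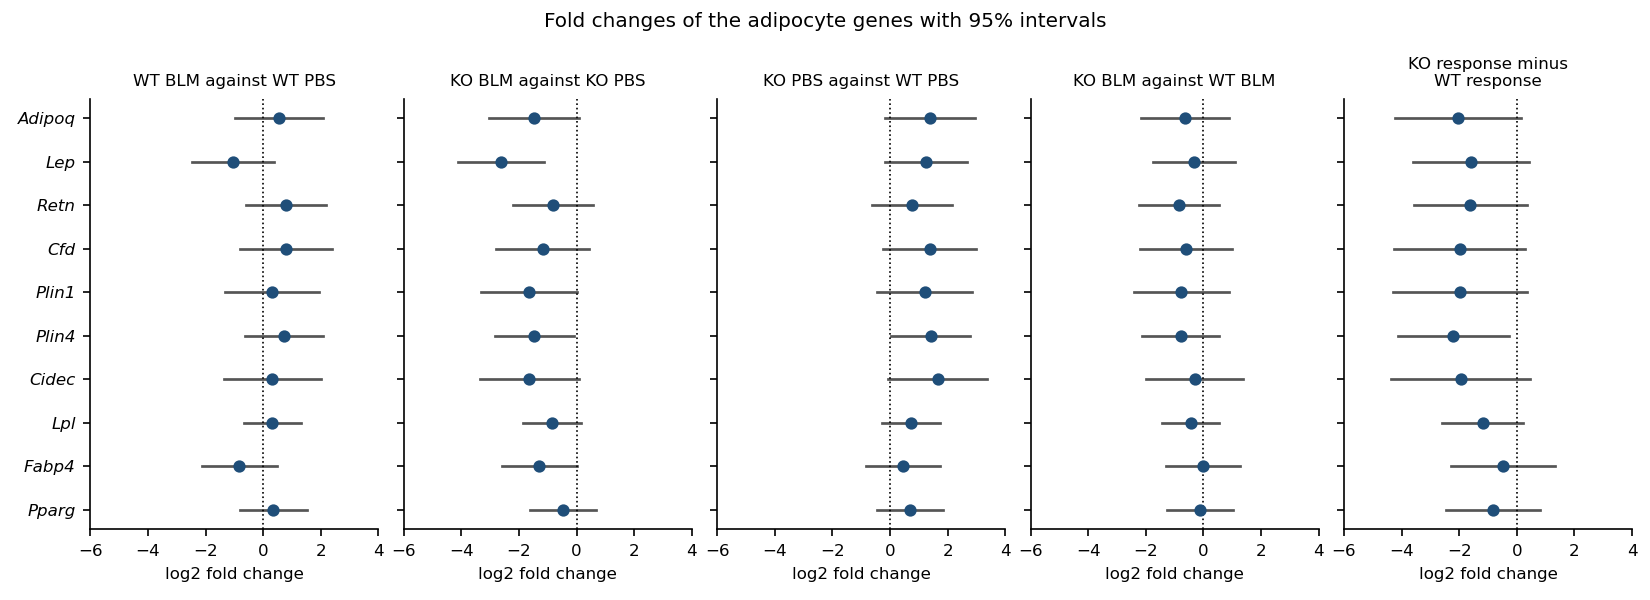
Log2 fold change (x axis) of each adipocyte gene in the 5 comparisons from edgeR, with 95% intervals from 12 mice; the dotted line is 0. Most intervals cross 0, and those that do not are Lep and Plin4 in KO BLM against KO PBS, Plin4 in KO PBS against WT PBS, and Plin4 in the difference between responses.

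Because the genes moved together from mouse to mouse, each was also set against Adipoq of the same mouse, and here Lep parted from the rest. In PBS mice Lep was 24.9, 29.0 and 29.5% of Adipoq by CPM in WT and 38.5, 30.5 and 19.0% in KO. In bleomycin mice it was 10.4, 9.04 and 9.79% in WT and 11.6, 12.3 and 9.62% in KO. The 6 bleomycin mice all lay below the 6 PBS mice, in both genotypes, and mice 146 and 141, high in Adipoq, had the low share of the other bleomycin mice. Of the 18310 genes set against Adipoq, 13 (0.071%) were lower in this way without overlap, and 3.84% were higher. Of the 9 ratios to Adipoq computed here, Lep's was the only one without overlap between the 6 PBS and the 6 bleomycin mice of both genotypes.

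For the other hormones and droplet genes the shares of Adipoq overlapped between the 6 PBS and the 6 bleomycin mice. The median share of Adipoq was 556% in PBS and 675% in bleomycin mice for Cfd, 77.6% and 69.5% for Plin1, 111% and 92.2% for Cidec 170% and 189% for Plin4 and 31.9% and 41.1% for Retn. Plin4 had the widest range of these, 130 to 457%, with the highest share in WT BLM mouse 145. Within WT mice alone, 3 more ratios did not overlap. The share of all genes whose ratios part in this way within a genotype was not computed. By CPM alone, 57% of all genes had no overlap between the WT groups. Fabp4 was 618 to 869% of Adipoq in WT PBS mice and lower, 286 to 324%, in WT BLM mice, while Cfd was 551 to 586% with PBS and higher, 612 to 708%, with bleomycin, and Retn 35.0 to 36.3% and, higher, 38.8 to 52.2%. In KO mice the shares of Cfd and Retn overlapped, as did those of Fabp4, with 784, 348 and 313% with PBS and 467, 340 and 676% with bleomycin. Pparg overlapped in WT mice, at 21.2 to 26.6% with PBS and 18.5 to 23.8% with bleomycin. In KO mice it did not, at 17.1, 17.7 and 11.2% with PBS and 22.8, 31.6 and 47.1% with bleomycin, again without a share over all genes to read it against.

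**Figure D4:**
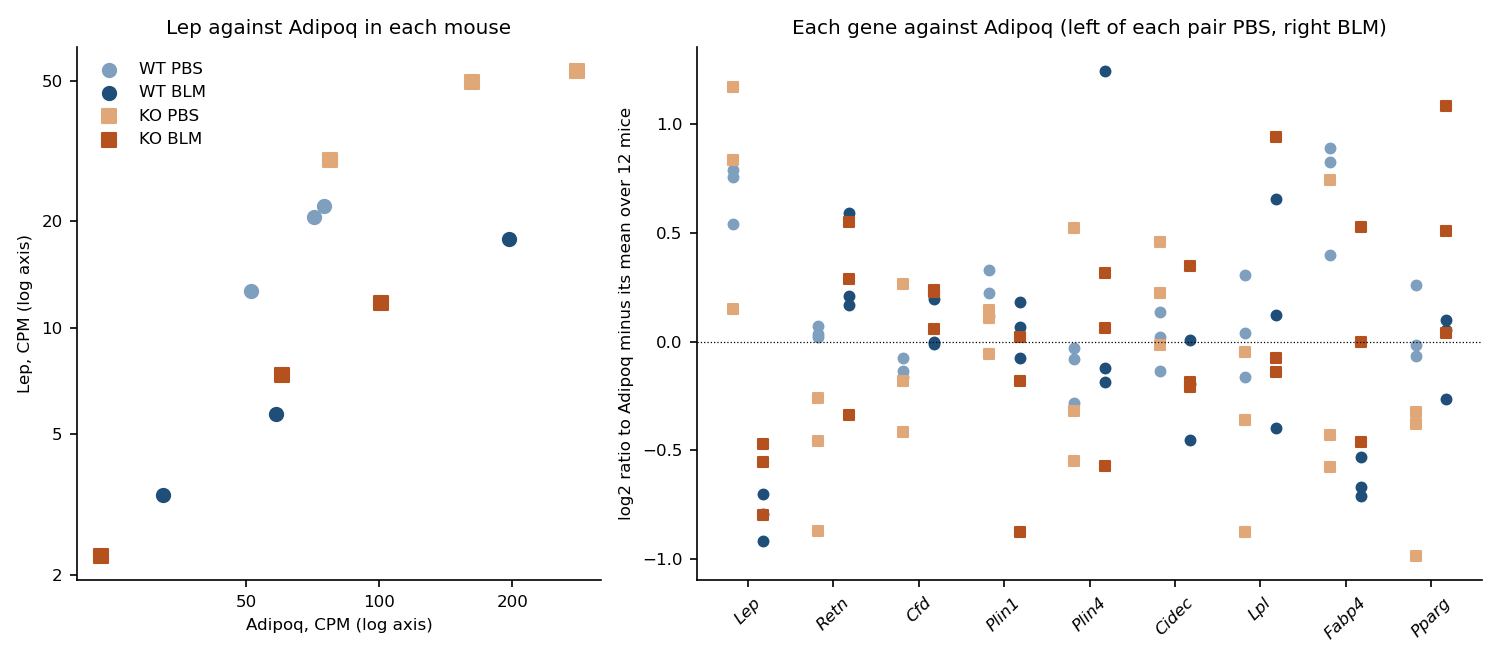
Left: CPM of Lep against CPM of Adipoq in each mouse (log axes), circles for WT and squares for KO. Right: log2 ratio of each of the other 9 genes to Adipoq, as the difference from that ratio's mean over the 12 mice, PBS mice at the left and bleomycin mice at the right of each pair. Relative to Adipoq of the same mouse, every bleomycin mouse holds less Lep than any PBS mouse in both genotypes, and the other 8 ratios overlap.

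A fit with the log2 CPM of Adipoq as a covariate, chosen after this ratio was seen, put a number on it. The ratio and the fit use the same 12 mice, so the Lep p-values are not independent of that choice. In WT mice Lep was lower with bleomycin by a log2 fold change of -1.50 (SE 0.22, edgeR adjusted p = 0.00510), and Fabp4 by -1.28 (SE 0.30, adjusted p = 0.0157), in a fit that called 35.9% of all genes. As elsewhere in WT mice, treatment and hair growth cannot be told apart in these 2 values. In KO mice Lep was at -1.52 (SE 0.25, unadjusted p = 0.000172, adjusted p = 0.130), where edgeR called 0% of all genes, and DESeq2 with the same covariate called it (-1.54, adjusted p = 5.08e-05) with 1.77% of all genes. The KO minus WT difference for Lep was -0.022 (SE 0.35, adjusted p = 0.978). With Adipoq as covariate the genotypes differed in Lep by 0.19 (SE 0.24, adjusted p = 0.719) with PBS and by 0.17 (SE 0.22, adjusted p = 0.732) with bleomycin, neither of which passed, in comparisons that called 0.0328% and 0.208% of all genes. Adipoq itself was 51.3 to 75.0 CPM in WT PBS and 77.5 to 280 CPM in KO PBS mice, without overlap. The PBS value therefore rests on a slope shared by all groups, not on mice of like Adipoq level. Fabp4 in KO mice was at -0.36 (SE 0.34, adjusted p = 0.702), and its KO minus WT difference of 0.92 (SE 0.47, adjusted p = 0.309) did not pass, although without mouse 136 it did (1.56, SE 0.40, adjusted p = 0.0162, with 32.7% of all genes called). In fits without mouse 136, here and for Lep below, treatment and hair growth cannot be told apart in either genotype. Pparg in KO mice was at 0.66 (SE 0.21, unadjusted p = 0.0125, adjusted p = 0.423) and its KO minus WT difference was 0.71 (SE 0.29, unadjusted p = 0.0364, adjusted p = 0.240), neither of which passed. The Fabp4 call in WT was lost without mouse 145 (-1.03, adjusted p = 0.0687) and without mouse 147 (-1.28, adjusted p = 0.0507). Over the fits that left out 1 mouse in turn, Lep stayed between -1.60 and -1.44 in WT, called in 12 of 12, and between -1.63 and -1.20 in KO, called in 1, without mouse 136. With the mean of 7 other adipocyte genes in place of Adipoq, Lep was at -1.58 in WT (adjusted p = 0.00452) and at -1.64 in KO (adjusted p = 0.0892).

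Over the 12 mice, the genes most like Adipoq were found by the mean absolute difference of log2 CPM after each gene's own mean was taken off. Cfd was nearest of 18310 genes (0.165), followed by Adhfe1 (0.183), which encodes a mitochondrial hydroxyacid dehydrogenase, Abcd2 (0.190), a peroxisomal fatty acid transporter gene, Plin1 (0.199) and Cidec (0.199). The median gene lay at 0.864. Among the members, Retn ranked 36, Pparg 43, Lpl 47, Plin4 61 and Fabp4 489, and Lep ranked 2401 at 0.707. For Pparg the nearest were Fcor (0.142), a gene first described in fat for its product's action on FOXO1, Cd300lg (0.149), Pmp22 (0.180), Cd1d1 (0.184) and Pcx (0.189), the pyruvate carboxylase gene, against 0.629 for the median gene. Retn was the nearest member to Pparg, at rank 36. These likenesses are descriptions over mice that share treatment, hair growth and muscle differences.

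Around the 10 genes, 98 genes of 9 adipocyte pathway lists were tested. In WT skin 26 of them passed edgeR's test after bleomycin, 20 higher (19.8% of all genes were) and 6 lower (14.1% of all genes), with a median log2 fold change of 0.38. That was 26.5% of the 98 genes in all, against 34% of all genes tested. The counts by list below are to be read against these shares. The lists hold several genes that muscle also uses, and the summed muscle list was 7001 to 7922 CPM in WT PBS mice and 24271 to 48977 CPM in WT BLM mice, without overlap. With the muscle list as a covariate 0% of all genes passed edgeR's test, so none of the 98 did, and with the hair list 0.0874% of all genes passed. Both lists part WT PBS from WT BLM mice without overlap. The part of muscle or hair growth in the genes below therefore cannot be told apart from treatment.

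Of 17 adipogenic regulators 5 rose and 0 fell, where 19.8% of all genes rose and 14.1% fell. Among the 5 were Nr1h3, the liver X receptor gene (17.8 ± 6.89 against 7.08 ± 1.11 CPM, log2 1.33, adjusted p = 0.0246), and Stat5a (log2 1.02, adjusted p = 0.0377). Of 9 other droplet genes 2 rose, Fitm1, a triglyceride-binding protein gene of muscle (log2 2.45, adjusted p = 0.00809), and the widely expressed Plin3 (log2 0.49, adjusted p = 0.0268). Of 9 lipolysis genes 1 fell, Mgll, the monoacylglycerol lipase gene (173 ± 41.2 against 284 ± 20.6 CPM, log2 -0.71, adjusted p = 0.0481).

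Of 16 synthesis genes 3 fell and 1 rose, where 14.1% of all genes fell and 19.8% rose. Elovl6, which elongates palmitate, fell from 396 ± 31.7 to 120 ± 37.6 CPM (log2 -1.73, adjusted p = 0.00940), and Acaca, acetyl-CoA carboxylase, had a log2 fold change of -0.69 (adjusted p = 0.0101). Lpin1, a phosphatidate phosphatase gene, rose (log2 1.41, adjusted p = 0.0176). Of 10 uptake genes 1 rose, Vldlr (log2 1.77, adjusted p = 0.00822). Of 8 genes of insulin-regulated glucose uptake 3 rose, with Slc2a4, the GLUT4 gene, at log2 1.69 (adjusted p = 0.0144) and Tbc1d4 at log2 0.87 (adjusted p = 0.0307).

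Of 5 adipokine receptor genes 1 rose, Cdh13, which encodes the adiponectin-binding T-cadherin (161 ± 28.5 against 55.3 ± 4.38 CPM, log2 1.54, adjusted p = 0.00679). Of 14 other adipocyte-enriched genes 5 rose, where 19.8% of all genes did, with Adra2a (log2 1.87, adjusted p = 0.0125) and Car3 (log2 1.44, adjusted p = 0.0472) the largest. The progenitor list of 10 genes parted: Pi16 (log2 -4.27, adjusted p = 0.00355) and Dpp4 (log2 -2.29, adjusted p = 0.00405), which mark early adipocyte progenitors and fascia fibroblasts, fell, while Dlk1 (log2 4.51, adjusted p = 0.0162) and Icam1 (log2 0.99, adjusted p = 0.0170) rose in edgeR's test with Benjamini-Hochberg adjustment. Pi16 went from 132 ± 39.3 to 6.80 ± 4.25 CPM.

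For the other 4 comparisons edgeR called 0 of the 98 pathway genes. In KO BLM against KO PBS 31 had a p under 0.05 before adjustment, in KO PBS against WT PBS 31, in KO BLM against WT BLM 18 and in the difference between responses 38, where 20%, 20.4%, 16.6% and 31.1% of all genes did. DESeq2 called 9, 4, 8 and 23 of them in that order, with 5.95%, 3.69%, 2.99% and 17.8% of all genes called. All 9 in KO BLM against KO PBS were lower, and the 4 in KO PBS against WT PBS were higher. Of the 8 in KO BLM against WT BLM 6 were higher and 2 lower, and of the 23 in the difference between responses 2 were above 0 and 21 below. The medians over the 98 genes were -0.40, 0.63, -0.23 and -0.92 in the same order.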

How the data were processed

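The authors sequenced poly(A) RNA of whole skin with a stranded TruSeq kit on a NextSeq in read pairs, and deposited 1 table of raw read counts per gene, not normalized, for 12 mice. The submitters' notes name genome build GRCm38.p6 and MultiQC 1.7; the aligner, counter, annotation and use of strand are not given in the sources used here. The authors tested with DESeq2. Here counts were scaled by TMM, filtered with filterByExpr (minimum count 10, minimum total 15; 18311 of 34689 genes with a count kept) and tested with edgeR 4.0.16 (quasi-likelihood, 4 group means, R 4.3.3), with Benjamini-Hochberg adjustment and a threshold of 0.05. Standard errors are the absolute log2 fold change over the root of the F statistic. Log2 CPM used a prior count of 2. DESeq2 1.42.0, other scalings and filters, hair or muscle covariates and leaving out mice were alternatives. Levels per kb used the longest APPRIS principal coding transcript of GENCODE M21; positions are from it. The fit without covariates was also run on simulated counts, drawn independently for each gene and without hair or muscle differences between mice.

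The members and all gene lists were chosen with earlier results of these data known. All 10 members are named in every comparison; of each pathway list, up to 2 called genes per direction with the largest log2 fold change; and the 5 genes nearest to Adipoq and to Pparg. Samples carry 1 number each, taken as 1 mouse. The p-values rest on a spread between mice within groups that is estimated over all 4 groups of 3 mice in 1 model. Depth (median 31494965 reads) left at least 64 reads behind each member value.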

Additional observations from a re-analysis of the deposited data

How the results depend on the processing

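No paired analysis was possible because each mouse has its own number, so no number is shared between groups. Counts of the 10 genes called were 0 in every comparison. In WT BLM against WT PBS, leaving out 1 mouse gave 0 to 2, the 2 without mouse 146. In KO BLM against KO PBS it gave 0 to 1, while DESeq2 gave 1, the hair list as covariate 1, KO PBS mouse 136 and KO BLM mouse 141 both left out 4, and DESeq2 with KO PBS mouse 136 left out (chosen after seeing the data) 2, with 21.4% of all genes called. In KO PBS against WT PBS it gave 0 to 1, KO PBS mouse 136 and KO BLM mouse 141 both left out gave 2 and DESeq2 with KO PBS mouse 136 left out gave 1, with 35.7% of all genes called. In KO BLM against WT BLM all alternatives gave 0. In the difference between responses it gave 0 to 1, DESeq2 gave 1, KO PBS mouse 136 and KO BLM mouse 141 both left out 5 and DESeq2 with KO PBS mouse 136 left out 2, with 38.1% of all genes called. The fits without mice 136 and 141 leave 2 mice in a KO group. Without mouse 136, hair growth parts the KO PBS mice from both the KO BLM and the WT PBS mice. Of the values of single genes under alternatives, 1015 kept their direction and side of the threshold, 25 passed it and 50 turned in sign with neither value called. With the muscle list as covariate, log2 fold changes in WT BLM against WT PBS were Adipoq -0.93, Retn -0.25, Cfd -0.91, Plin1 -0.92, Plin4 -1.35, Cidec -1.73, Lpl -0.58 and Pparg -0.79. In KO PBS against WT PBS they were Retn -0.028, Plin4 -0.16 and Pparg -0.15; in KO BLM against WT BLM Adipoq 0.087, Lep 0.030, Cfd 0.24, Plin4 0.20, Cidec 0.71, Fabp4 0.18 and Pparg 0.43. In the difference between responses they were Cfd 0.13, Plin4 0.35, Cidec 0.58 and Pparg 0.58. Fabp4 was 0.10 in WT BLM against WT PBS with the hair list as covariate, and 0.020 in KO BLM against WT BLM with no filter on low counts. Leaving out 1 mouse in WT BLM against WT PBS gave ranges of -0.54 to 0.95 (Adipoq), -0.12 to 1.22 (Retn), -0.42 to 1.23 (Cfd), -0.62 to 0.71 (Plin1), -0.82 to 0.69 (Cidec), -0.30 to 0.59 (Lpl) and -0.50 to 0.74 (Pparg), negative only without mouse 146. In KO BLM against WT BLM the ranges were -1.16 to 0.44 (Adipoq), -0.86 to 0.65 (Lep), -1.27 to 0.075 (Retn), -1.18 to 0.63 (Cfd), -1.50 to 0.17 (Plin1), -1.14 to 0.84 (Cidec), -0.75 to 0.17 (Lpl), -0.60 to 0.97 (Fabp4) and -0.50 to 0.73 (Pparg), and in the difference between responses -1.09 to 0.52 (Fabp4) and -1.20 to 0.031 (Pparg). Set against Adipoq of the same mouse, Lep in KO mice was -1.54 and called with DESeq2, and ran from -1.63 to -1.20 when 1 mouse was left out. Its KO minus WT difference was 0.0013 with no filter on low counts, 0.23 with mice 136 and 141 left out and -0.13 to 0.32 with 1 mouse left out. Fabp4 in WT ran from -1.55 to -1.03, not called without mouse 145 (-1.03) or 147 (-1.28). In KO mice it ran from -0.57 to 0.24, and was 0.10 with mice 136 and 141 left out. The cause of these moves was not tested. A prior count of 0.5 in place of 2 moved no member's mean log2 CPM by as much as the spread between mice. With 3 mice a group, most 95% intervals of these genes spanned several-fold.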

Other observations

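Lep was not alone in being lower against Adipoq in all 6 bleomycin mice than in any of the 6 PBS mice. The 13 genes with this pattern, named after their values were seen, were Aqp7, Clec3b, Hamp2, Inmt, Lep, Lvrn, Myoc, Nnat, Opcml, Pcolce2, Pi16, Scara5 and Smoc1. Aqp7 encodes the glycerol channel of adipocytes, and was at most 3.15% of Adipoq in bleomycin mice and at least 5.59% in PBS mice. Pi16 was at most 52.1% of Adipoq in bleomycin mice and at least 98.7% in PBS mice, and Scara5 at most 31.1% and at least 64.1%. Aqp7 was 5.65 ± 0.973 CPM in WT PBS and 2.48 ± 2.72 CPM in WT BLM mice (log2 -1.18, SE 0.75, edgeR adjusted p = 0.235 with Benjamini-Hochberg adjustment). In KO mice it was 10.4 ± 4.79 CPM with PBS and 1.65 ± 1.35 CPM with bleomycin (log2 -2.66, SE 0.78, adjusted p = 0.141).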
